A study of Mus musculus with 2 samples.

Results

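The genes described here are 31 genes of cholesterol synthesis, regulation and transport, chosen by gene symbol from the 55416 features of single-nucleus RNA-seq of fetal mouse whole brain. Their unique molecular identifiers (UMIs, 1 per captured RNA) were summed per gene over the nuclei with at least 500 detected genes and at most 5% mitochondrially encoded UMIs. The study compared 2 genotypes, wildtype and knockout of Cav1, the gene of caveolin 1, a cholesterol-binding membrane protein that forms caveolae. Each genotype had 1 library, and the labels give no strain, sex, exact fetal age, number of pooled brains or knockout design. With 1 library per genotype no difference between them could be tested: intervals below are 95% intervals that cover counting error only, and brain-to-brain variation is unknown.

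The wildtype-labelled (WT-labelled) library held 6686 such nuclei and 17205381 UMIs, and the knockout-labelled (KO-labelled) library 6680 nuclei and 19878903 UMIs, with medians of 2134 and 2366 UMIs per nucleus. All 31 genes had at least 100 UMIs. Of the kept barcodes, 10 occurred in both libraries. Below, a pair of values gives the WT-labelled library first. The label was checked on Cav1 itself: it had 71 UMIs and 80 UMIs, or 4.13 and 4.02 counts per 1000000 UMIs (CPM), so that its level did not separate the libraries. The deleted part of the gene is not given in the sources used here, and UMIs near the 3′ end need not report on it. The libraries are therefore called by their labels throughout. Mitochondrially encoded UMIs were 0.692% and 0.805% of the total, and ribosomal protein UMIs 2.42% and 2.37%.

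Once the blood-brain barrier has formed, the brain makes nearly all of its own cholesterol. Acetyl units are joined and reduced to mevalonate and then to isoprenoids and squalene, and squalene is oxidised, closed to lanosterol and trimmed to cholesterol. Transcription of these enzymes is driven by the SREBP factors (genes Srebf1 and Srebf2), which the escort protein SCAP carries to the Golgi when sterols are scarce and which the INSIG proteins hold back in the endoplasmic reticulum when they are plentiful. Glial cells hand cholesterol to neurons on apolipoprotein E particles, loaded by the transporter ABCA1 and taken up by receptors such as LRP1.

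Most of the synthesis enzymes were slightly higher in the KO-labelled library, with log2 ratios from -0.106 (Hsd17b7) to 0.468 (Mvd). Summed over the 20 enzymes, the level was 839 CPM in the WT-labelled and 948 CPM in the KO-labelled library, a log2 ratio of 0.18 (interval 0.15 to 0.21). Of the 20 enzymes, 18 had a log2 ratio above 0, and over all 31 genes 25 did, where 46.5% of the 15528 genes with at least 100 UMIs in both libraries together did. The median log2 ratio was 0.185 for the enzymes and -0.014 for all those genes. The counting interval lay above 0 for 11 enzymes and for 14 of the 31 genes, against 13.2% of all genes, and below 0 for 0 of the 31, against 13.2% of all genes. Large differences were few: 3 of the 31 genes (Mvd, Insig1 and Apoe) were at least 25% higher in the KO-labelled library, close to the 8.02% of all genes, and 0 were at least 20% lower (the same fold), against 4.6% of all genes. Barcodes with fewer than 500 genes, which were left out and can hold free RNA or damaged nuclei, had more enzyme UMIs per total than the nuclei, 1417 CPM (1360 to 1475) and 1550 CPM (1500 to 1603); their part in the difference was not tested.

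**Figure D1:**
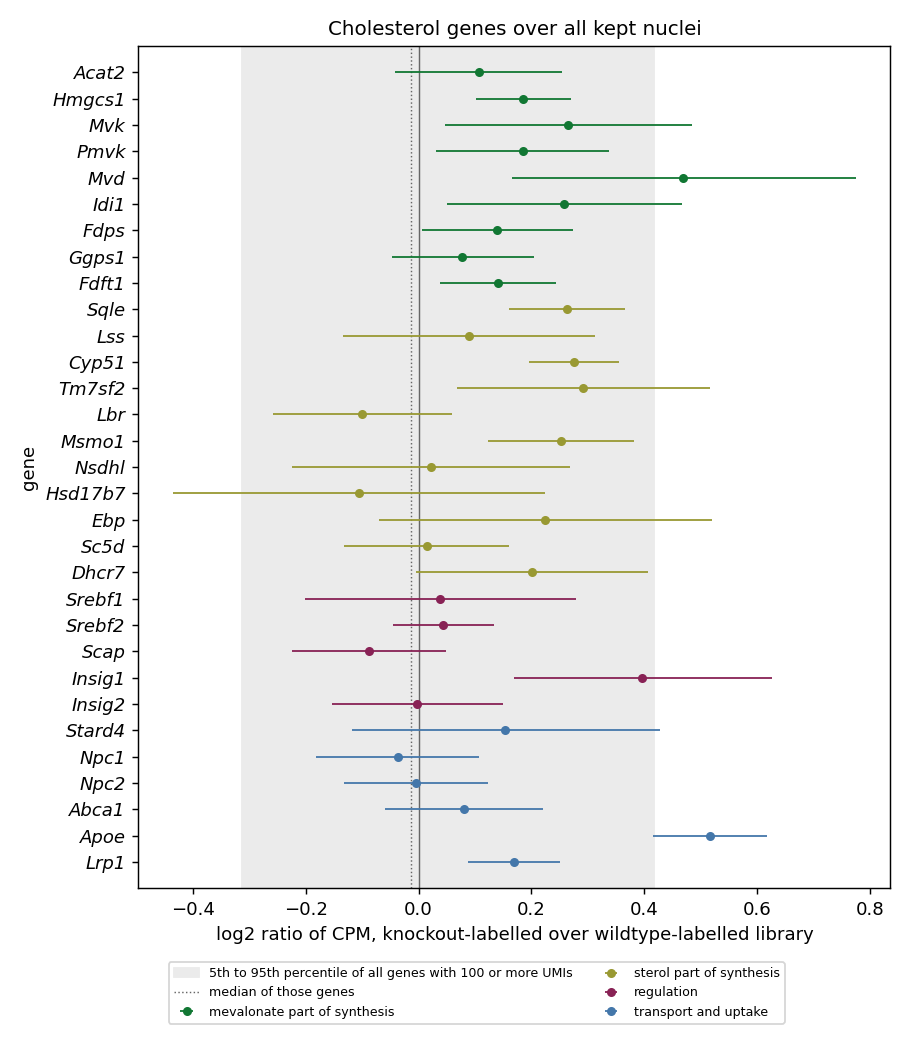
Log2 ratio of CPM in the KO-labelled over the WT-labelled library for each of the 31 genes (x axis), with bars for the 95% counting interval, coloured by role; the grey band spans the 5th to 95th percentile of all genes with at least 100 UMIs (-0.313 to 0.418) and the dotted line is their median (-0.014). The 9 genes of the mevalonate part all lie above 0, and Mvd and Apoe lie beyond the band.

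All 9 genes of the mevalonate part, from acetyl units to squalene, had a higher level in the KO-labelled library, with a median log2 ratio of 0.184. Hmgcs1, the cytosolic synthase that makes HMG-CoA (GRCm39 chr13:120151915-120170470, plus strand), was the most counted of them, with 2030 UMIs (118.0 CPM) in the WT-labelled and 2668 UMIs (134.2 CPM) in the KO-labelled library, a log2 ratio of 0.19 (0.10 to 0.27). Fdft1, squalene synthase, which commits farnesyl units to sterols, was at 79.2 and 87.3 CPM, a ratio of 0.14 (0.04 to 0.24). Mvd, the decarboxylase that yields isopentenyl diphosphate, had the lowest count of the 9, 147 and 235 UMIs (8.54 and 11.8 CPM), and the widest difference, 0.47 (0.16 to 0.78). The other kinases and isomerase of this stretch lay between these: Mvk, mevalonate kinase, at 0.26 (0.05 to 0.48), Pmvk, phosphomevalonate kinase, at 0.18 (0.03 to 0.34), and Idi1, isopentenyl diphosphate isomerase, at 0.26 (0.05 to 0.47). Fdps, farnesyl diphosphate synthase, at 0.14 (0.01 to 0.27) was just clear of 0. The intervals of Acat2, the cytosolic thiolase at the start of the pathway (0.11, -0.04 to 0.25), and of Ggps1, which diverts farnesyl units to geranylgeranyl diphosphate (0.08, -0.05 to 0.20), included 0. These 9 ratios stayed above 0 in each of the 10 alternative settings run over all nuclei.

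In the sterol part 9 of 11 genes had a ratio above 0, with a median of 0.200, and Lbr and Hsd17b7 were below it. Cyp51, lanosterol demethylase (GRCm39 chr5:4123416-4154751, minus strand), was the most counted gene of all 31 in the KO-labelled library, with 2193 UMIs (127.5 CPM) against 3066 UMIs (154.2 CPM), a log2 ratio of 0.28 (0.20 to 0.35). Sqle, the squalene epoxidase that adds the first oxygen, was at 77.2 and 92.7 CPM (0.26, 0.16 to 0.37), and Msmo1, the methyl sterol oxidase, at 49.3 and 58.8 CPM (0.25, 0.12 to 0.38). Higher by a like amount but far less counted was Tm7sf2, a sterol C14 reductase, with 283 and 400 UMIs (0.29, 0.07 to 0.52). Lbr, the lamin B receptor of the inner nuclear membrane, carries the same reductase activity, and its ratio was on the other side of 0 at -0.10 (-0.26 to 0.06). Hsd17b7, a 3-ketosteroid reductase, was likewise below 0 with a wide interval (-0.11, -0.44 to 0.22). The intervals of Lss, lanosterol synthase (0.09), Nsdhl, a sterol dehydrogenase (0.02), Ebp, a sterol isomerase (0.22), Sc5d, lathosterol desaturase (0.01), and Dhcr7, the 7-dehydrocholesterol reductase of the last step (0.20), all included 0. Over the 10 alternatives, 6 of the 11 stayed above 0, and Lss, Ebp and Sc5d changed sign in at least 1 of them, with lowest values of -0.049, -0.059 and -0.180. Lbr and Hsd17b7 turned above 0 in at least 1, with highest values of 0.049 and 0.008.

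Genes called most counted here were ranked on undivided UMIs. In undivided CPM of the WT-labelled library, Cyp51 (127.5), Lrp1 (124.6) and Hmgcs1 (118) led the 31 genes. Whether UMIs rise with gene length was not tested. Levels were also compared after division by gene length, in CPM per kilobase of annotated exon in the WT-labelled library (GENCODE M39). On this scale Hmgcs1 (22.4), Cyp51 (21.5), Apoe (18.4), Fdft1 (16.6) and Srebf2 (11.6) were the 5 genes above 10, and Lrp1 was at 6.08. Per kilobase of the whole gene, introns included, Apoe (15.1), Hmgcs1 (6.36), Sqle (4.78) and Cyp51 (4.07) led. The order of genes therefore depends on whether levels are divided and on the length used. Whether introns were counted is not given in the sources used here. By this annotation 25 of the 31 genes overlap another annotated gene, 23 of them one on the opposite strand (Cyp51 with Akap9, Ggps1 with Arid4b, Acat2 with Tcp1, Npc2 with Isca2), and the assignment of reads there is uncertain.

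Most promoters of the enzymes held a short sequence that the choice of genes did not use. RefSeq windows from 250 bases before to 50 after each gene's start (GRCm38.p6) were at hand for 26 of the 31 genes, without Fdps, Fdft1, Sqle, Stard4 and Npc1. The letters CCAATC, read on either strand and the core of the box bound by the factor NF-Y, were in 15 of 17 enzyme windows (88.2%), 3 of 5 regulator windows and 0 of 4 transport windows. They were in 23.6% of the windows of 10802 genes with at least 100 UMIs, and in 18.2% of all 27025 windows. Since 9 letter strings were searched, and CCAATC was singled out after its share had been seen, this is a description. It overlaps with another string searched, ATTGG on either strand, found in 94.1% of enzyme windows and 43.2% of those of the 10802 genes. Before the start, 16 of the 26 genes with a window held CCAATC, in 15 of them at most 100 bases away. The windows below run 5′ to 3′ on the gene's strand in GRCm38.p6, with the box in capitals (GATTGG where it lies on the other strand); they were picked, after the matches were seen, to show the box in enzymes of both parts and in 2 regulators.
Mvd, chr8:122443432-122443461, minus strand: ccggccagcgggCCAATCatatggcagcgc
Idi1, chr13:8885548-8885577, plus strand: ttgcctccagctGATTGGcgagcccgggca
Cyp51, chr5:4104709-4104738, minus strand: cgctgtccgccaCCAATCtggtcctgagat
Tm7sf2, chr19:6067881-6067910, minus strand: cctcccagcgctGATTGGctactgtgctgg
Sc5d, chr9:42264308-42264337, minus strand: gcgccggctgctGATTGGccggctgcctgc
Msmo1, chr8:64733657-64733686, minus strand: ccttagcacggaCCAATCactgcacggcga
Srebf1, chr11:60210485-60210514, minus strand: ggcgcggctgctGATTGGccatgtgcgctc
Insig2, chr1:121332601-121332630, minus strand: tcaccttccacaCCAATCtatattaaaatg

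A sterol regulatory element, the letters TCACNCCAC on either strand, was in 1 of 26 windows, that of Hmgcs1, and in 1.42% of the 10802. It is shown because Hmgcs1 is the most counted gene of the mevalonate part.
Hmgcs1, chr13:119690204-119690232, plus strand: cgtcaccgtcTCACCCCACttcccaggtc

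Its shorter core, CACNCCAC, was also in the windows of Acat2 and Insig1 (3 of 26, 11.5%, against 7.56%). The 5 other strings searched were GGGCGG, in 88.5% of the 26 windows and 67.3% of the 10802, CACGTG, in 23.1% and 11.3%, TCACGTGA, in 0 of 26 and 2.13%, CACCCCAC, in 7.69% and 3.69%, and ATCACNCCA, in 3.85% and 0.704%. Set beside the difference between the libraries, the median log2 ratio was -0.0214 for the 2550 features with CCAATC and -0.012 for the 8258 features without it, and among the 31 it was 0.137 for the 18 with it and 0.138 for the 8 without it.

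Among the 5 regulators, Insig1 alone was at least 25% higher in the KO-labelled library. Insig1, itself a target of the SREBP factors (GRCm39 chr5:28276315-28283668, plus strand), had 263 UMIs (15.3 CPM) in the WT-labelled and 400 UMIs (20.1 CPM) in the KO-labelled library, a log2 ratio of 0.40 (0.17 to 0.63). Insig2, its relative in the endoplasmic reticulum, was at 38.7 and 38.6 CPM, with a ratio of -0.00 (-0.15 to 0.15). Srebf2, the SREBP gene most tied to cholesterol synthesis and the most counted regulator, was at 108.5 and 111.8 CPM (0.04, -0.05 to 0.13), and Srebf1, more tied to fatty acid synthesis, at 15.6 and 16.0 CPM (0.04, -0.20 to 0.28, with -0.004 as the lowest value over the settings). Scap, the escort, was at 49.4 and 46.5 CPM (-0.09, -0.22 to 0.05). Within classes, Insig1 rested on few UMIs: 13 and 41 in dividing nuclei (1.26, 0.33 to 2.28), 9 and 36 in the other excitatory class (1.38, 0.30 to 2.62), 23 and 22 in radial glia-like nuclei (0.16, -0.75 to 1.07), 43 and 50 in the cortical class (0.39, -0.22 to 1.02), 100 and 156 in the general neuron class (0.29, -0.08 to 0.67) and 11 and 10 in the forebrain inhibitory class (-0.15, -1.55 to 1.22); the classes are described below. Summed over the 5, the ratio was 0.03 (-0.03 to 0.10), and the median was 0.038.

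In transport, Apoe and Lrp1 were higher in the KO-labelled library with intervals above 0. Apoe, the main lipid carrier of the brain (GRCm39 chr7:19430034-19434947, minus strand), had 1278 UMIs (74.3 CPM) in the WT-labelled and 2111 UMIs (106.2 CPM) in the KO-labelled library. The log2 ratio was 0.52 (0.41 to 0.62), the widest of the 31. Lrp1, a large receptor that takes up apolipoprotein E particles, was at 124.6 and 140.1 CPM (0.17, 0.09 to 0.25). Abca1, the transporter that loads cholesterol onto apolipoproteins, was at 44.3 and 46.8 CPM (0.08, -0.06 to 0.22) and turned to -0.066 when vascular, fibroblast, microglia and choroid plexus nuclei were left out. Stard4, a cytosolic sterol carrier (0.15, -0.12 to 0.43), and Npc1 and Npc2, which move cholesterol out of lysosomes (-0.04, -0.18 to 0.11, and -0.00, -0.13 to 0.12), had intervals that included 0. The median over the 6 genes was 0.117.

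Nuclei were then sorted into classes by fixed marker genes, since the files used here hold no cell annotation. The names are rebuilt, "-like" is used for them, and 6 classes had at least 200 nuclei in each library: radial glia-like (418 and 344), dividing (256 and 256), cortical excitatory neuron-like (906 and 674), forebrain inhibitory neuron-like (375 and 346), other excitatory neuron-like (304 and 382) and a class with general neuron markers only (2630 and 2926). The sorting rule was chosen out of 7 by its result on markers kept out of the sorting. These markers are therefore not an independent check of the class names. They were at least 2-fold above other nuclei for 2 of 3 in the radial glia-like class, for 3 of 3 in the dividing and forebrain inhibitory classes, and for 2 of 3 in the other excitatory class. Only 1 of 3 passed in the cortical class, Slc17a7, and the general neuron class had no marker of its own among its 10 leading genes. The latter is a remainder of mixed neurons and not a type.

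Synthesis enzymes were counted in every class. Under the marker rule used, the level was highest in radial glia-like nuclei, the stem cells of the fetal brain. There the 20 enzymes summed to 1104 CPM (1035 to 1176) in the WT-labelled and 1242 CPM (1163 to 1325) in the KO-labelled library, 1.34 and 1.33 times the level of all other nuclei. Dividing nuclei came next among the 6 classes, with 942 and 1018 CPM. The top rank hangs on the sorting. With the first, looser marker rule, radial glia-like nuclei had 925 and 1030 CPM and did not lead in either library. Under that rule dividing nuclei had 955 and 1019 CPM, and the general neuron class 876 and 1041 CPM. In the 4 neuron classes the sum was 762 to 831 CPM in the WT-labelled and 863 to 948 CPM in the KO-labelled library, and within each library the intervals of neighbours in the order of the 4 overlapped. Fibroblast-like nuclei, with 642 CPM (544 to 752) and 619 CPM (528 to 722), were below the 6 classes in both libraries, though in the WT-labelled library their interval overlapped those of the cortical and forebrain inhibitory classes. Levels between classes are also touched by depth: median UMIs per nucleus ran from 1975 to 3251 in the WT-labelled library over the 6 classes, and the part of depth in these differences was not tested.

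**Figure D2:**
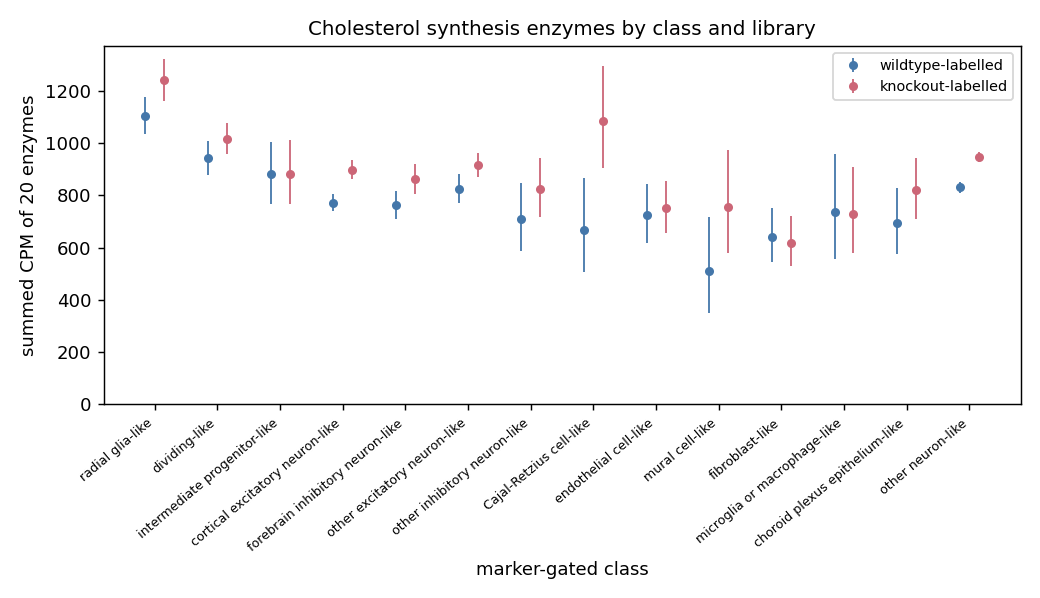
Summed CPM of the 20 synthesis enzymes (y axis, from 0) in each marker-gated class with at least 20 nuclei per library, with exact 95% Poisson intervals. The radial glia-like class is at 1104 and 1242 CPM, and the KO-labelled value is the higher one in each of the 6 classes with at least 200 nuclei.

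Within the 6 larger classes the summed enzyme level was higher in the KO-labelled library, as over all nuclei. The log2 ratio of their sum was 0.17 (0.04 to 0.30) in radial glia-like nuclei, 0.22 (0.13 to 0.30) in the cortical excitatory class, 0.18 (0.04 to 0.32) in the forebrain inhibitory class, 0.15 (0.03 to 0.27) in the other excitatory class and 0.19 (0.14 to 0.24) in the general neuron class. In dividing nuclei it was 0.11, with an interval that included 0 (-0.02 to 0.24). The size moved with the settings run: from 0.155 to 0.299 in radial glia-like nuclei, from 0.043 to 0.111 in dividing nuclei, from 0.187 to 0.223 in the cortical class, from 0.108 to 0.260 in the forebrain inhibitory class, from 0.083 to 0.167 in the other excitatory class and from 0.175 to 0.249 in the general neuron class. The 6 intervals overlap, and a difference between classes was not tested. With at least 100 UMIs in the class, 9 of 10 of the 31 genes were above 0 in radial glia-like nuclei (all genes 47.0%), 9 of 12 in dividing nuclei (45.5%), 18 of 19 in the cortical class (48.2%), 8 of 9 in the forebrain inhibitory class (49.4%), 12 of 17 in the other excitatory class (49.8%) and 26 of 31 in the general neuron class (49.3%). The KO-labelled level of Cyp51 was the higher one in all 6 classes, from 0.12 (-0.16 to 0.40) in the other excitatory class to 0.47 (0.25 to 0.68) in the cortical class. Picked after their values were seen, Msmo1 in dividing nuclei, with 36 and 92 UMIs, had a ratio of 0.95 (0.38 to 1.55), and Ggps1 there was lower, 58 and 49 UMIs (-0.64, -1.22 to -0.07).

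Apoe differed between the libraries in some classes and hardly in one. In radial glia-like nuclei it was at 135.9 CPM (112.5 to 162.7) in the WT-labelled and 285.0 CPM (248.0 to 326.1) in the KO-labelled library, a log2 ratio of 1.07 (0.74 to 1.41). In dividing nuclei it was at 61.5 and 117.4 CPM (0.93, 0.46 to 1.43), and in the general neuron class at 47.9 and 88.1 CPM (0.88, 0.69 to 1.07). Cortical excitatory neuron-like nuclei had 40.7 and 44.4 CPM, a ratio of 0.12 (-0.27 to 0.52), whose upper bound is below the lower bound in radial glia-like nuclei; over the settings run it moved between -0.006 and 0.471, and that of radial glia-like nuclei between 0.836 and 1.353. The forebrain inhibitory and other excitatory classes were at 0.60 (0.03 to 1.19) and 0.53 (-0.05 to 1.13), with ranges over the settings of 0.296 to 0.939 and 0.238 to 0.977 that overlap both of those. The dividing class ranged from 0.745 to 1.338 and the general neuron class from 0.474 to 1.053. Intermediate progenitor-like nuclei, with only 27 and 15 UMIs, were at 107.6 and 63.1 CPM. Microglia or macrophage-like nuclei, the class with the highest level, had it the other way: 192 UMIs in 28 nuclei (2574 CPM, 2223 to 2965) against 226 UMIs in 31 nuclei (2089 CPM, 1825 to 2380). They held 15.0% and 10.7% of all Apoe UMIs. Over all nuclei without them and without the vascular, fibroblast and choroid plexus nuclei, the ratio was 0.586. Neurons are not known as a main source of Apoe, and RNA freed from other cells can add UMIs to any droplet. In the barcodes with fewer than 500 genes, Apoe was at 202.2 CPM (181.2 to 225.1) and 208.0 CPM (189.6 to 227.6), above the level of every neuron class and nearly equal in both libraries. The part of free RNA in the Apoe values of neuron classes was not tested.

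**Figure D3:**
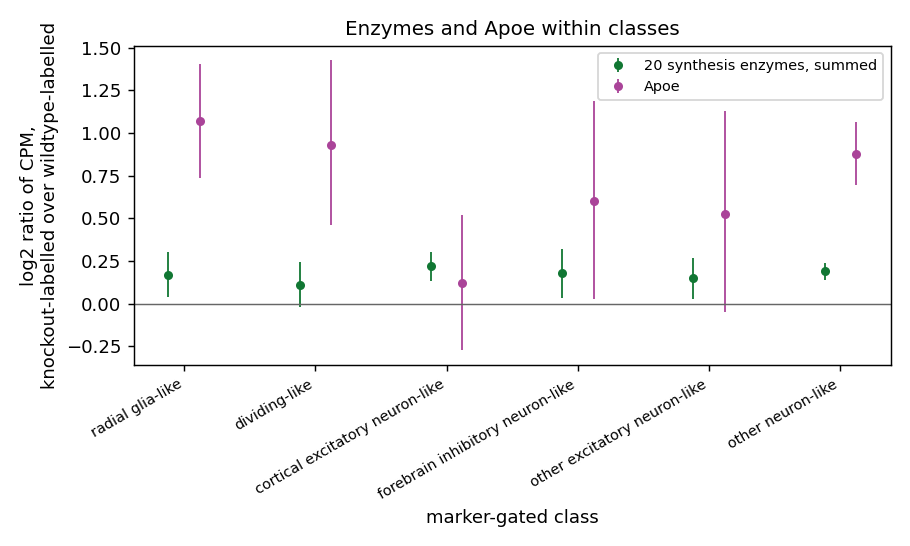
Log2 ratio of CPM, KO-labelled over WT-labelled library, within the 6 classes with at least 200 nuclei per library, for the sum of 20 enzymes and for Apoe, with 95% counting intervals. The enzyme values run from 0.11 to 0.22, and those of Apoe from 0.12 to 1.07.

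A gene is said here to mark a class where it was at least 2-fold above all other nuclei in both libraries. Between 1 and 3 of the 31 genes did so in each of 7 classes, and in 6 of the 7 the share was at or below that of all genes: 2 of 31 in radial glia-like nuclei, where 6.57% of all genes with at least 100 UMIs did, 1 of 31 in dividing nuclei (4.08%), and 2 of 31 each in endothelial-like (6.58%) and fibroblast-like nuclei (6.83%). Abca1 (GRCm39 chr4:53030787-53159900, minus strand) did so in 4 classes. In endothelial-like nuclei, the lining of vessels, it had 113 and 176 UMIs (502.3 and 580.6 CPM, 13.1 and 15.1 times the other nuclei), and in microglia or macrophage-like nuclei 34 and 58 UMIs (455.8 and 536.1 CPM). Fibroblast-like nuclei had 191.7 and 259.9 CPM, and radial glia-like nuclei 103.6 and 108.9 CPM, 2.52 and 2.45 times the other nuclei. In the cortical, other excitatory and general neuron classes it was between 11.03 and 25.8 CPM in both libraries. The forebrain inhibitory class differed from these, with 51 and 30 UMIs (52.2 and 30.4 CPM), and was lower in the KO-labelled library, at a log2 ratio of -0.78 (-1.48 to -0.10). Endothelial-like nuclei were 0.703% and 0.973% of nuclei and gave 14.8% and 18.9% of the Abca1 UMIs. Apoe passed the fold in microglia or macrophage-like nuclei, in endothelial-like nuclei (191.2 and 320.0 CPM, 2.63 and 3.11 times the other nuclei) and in fibroblast-like nuclei (233.4 and 279.0 CPM, 3.24 and 2.69 times).

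Lbr marked the dividing nuclei, with 114 and 121 UMIs: 134.7 CPM (111.1 to 161.9) and 108.4 CPM (89.9 to 129.5), 4.30 and 3.66 times the other nuclei. The next class was radial glia-like, at 66.8 and 72.6 CPM, and the neuron classes had 20.3 to 36.5 CPM. Tm7sf2, the other sterol C14 reductase, did not follow it: dividing nuclei had 9 and 24 UMIs (10.6 and 21.5 CPM), 0.635 and 1.07 times the other nuclei. Srebf1 passed in radial glia-like nuclei with 27 and 26 UMIs (31.1 and 35.0 CPM, 2.11 and 2.29 times).

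In microglia or macrophage-like nuclei 3 of 31 genes passed, against 4.55% of all genes, and the 3 include Ebp, with 2 and 5 UMIs only. Choroid plexus epithelium-like nuclei had 1 of 31 (5.04%), Hsd17b7 with 7 and 5 UMIs. The 11 and 11 oligodendrocyte precursor-like nuclei had Lss alone (3.36%), with 2 and 2 UMIs only. The radial glia-like count hangs on the sorting: it was 0 with the first, looser marker rule used and 5 with a stricter one (Lbr, Nsdhl, Srebf1, Abca1 and Apoe). Abca1 and Apoe in endothelial-like, fibroblast-like and microglia or macrophage-like nuclei, and Lbr in dividing nuclei, passed in every setting run.

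**Figure D4:**
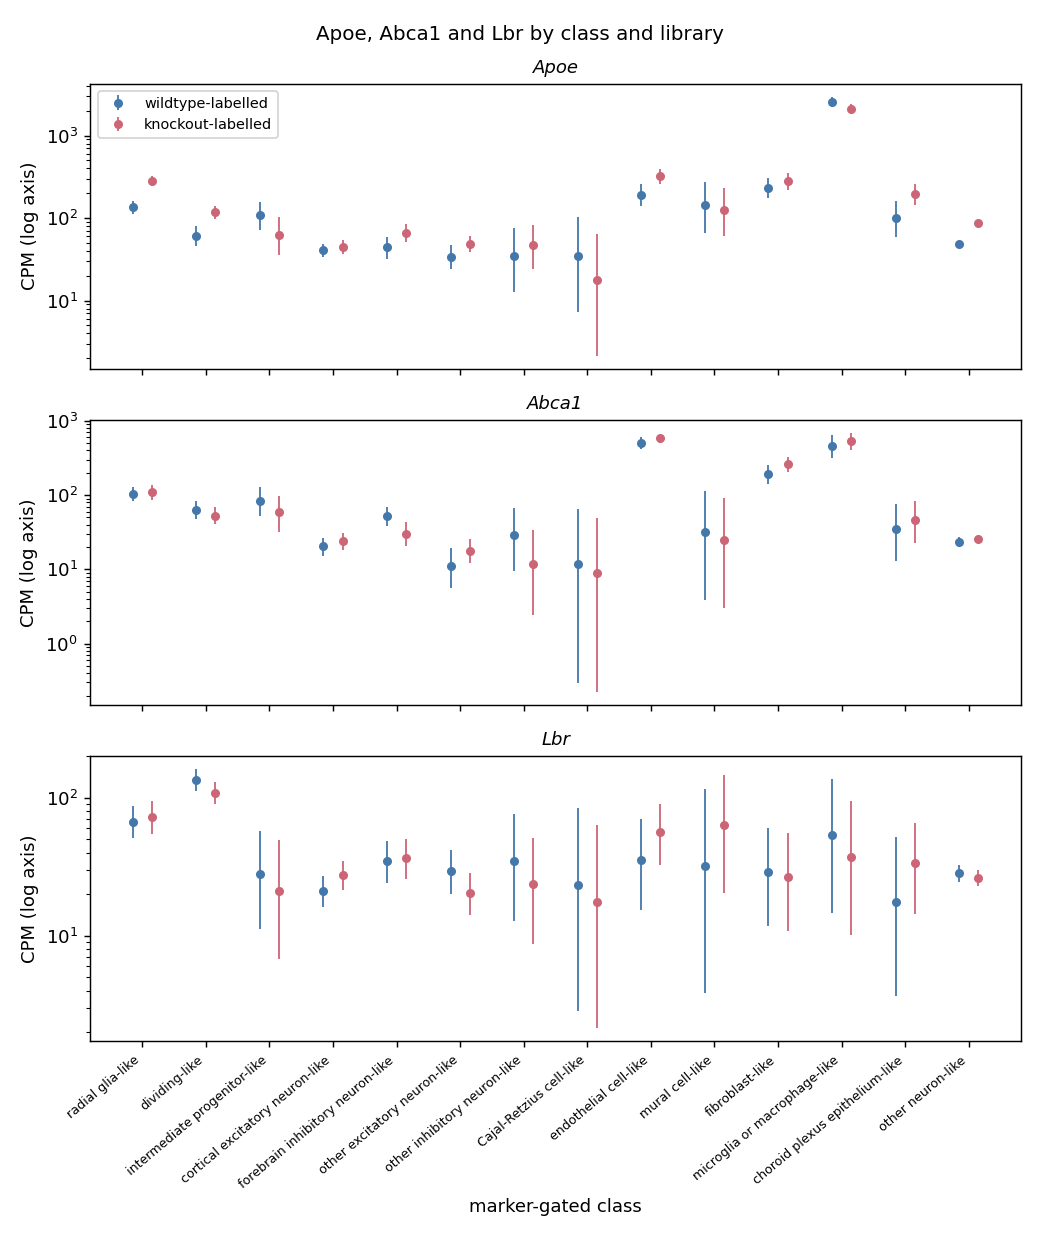
CPM (log axes) of Apoe, Abca1 and Lbr in each marker-gated class with at least 20 nuclei per library, with exact 95% Poisson intervals. Apoe reaches 2574 and 2089 CPM in microglia or macrophage-like nuclei, Abca1 502.3 and 580.6 CPM in endothelial-like nuclei, and Lbr 134.7 and 108.4 CPM in dividing nuclei.

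Of 36 other genes of cholesterol handling with at least 100 UMIs (transporters, further receptors, oxysterol-binding proteins, esterases and SREBP proteases), 22 were above 0 and the median log2 ratio was 0.068, against 46.5% above 0 and a median of -0.014 for all genes. At least 25% higher were 3 of them: Pgrmc1, a haem-binding membrane protein (2726 and 4458 UMIs, 0.50, 0.43 to 0.57), its relative Pgrmc2 (360 and 520 UMIs, 0.32, 0.12 to 0.52) and Lrp2, a lipoprotein receptor (110 and 160 UMIs, 0.33, -0.03 to 0.70), near the 8.02% of all genes. The receptors Lrp8 and Vldlr were level at -0.00 (-0.07 to 0.07) and -0.00 (-0.15 to 0.15). The interval lay above 0 for 6 of the 36 and below 0 for 3, against 13.2% of all genes each way. The 3 were Osbpl8, an oxysterol-binding protein (-0.13, -0.21 to -0.06), Gramd1b, a sterol carrier at membrane contacts (-0.08, -0.15 to -0.01), and Dhdds, a subunit of the enzyme that makes dolichol precursors from farnesyl units (-0.23, -0.37 to -0.10). By gene span, the median ratio was highest for those of the 31 genes that span under 20 kb. The 18 spanning under 20 kb had a median of 0.205 and the 12 of 20 to 100 kb one of 0.0409, where 4487 and 5717 protein-coding genes of those spans had -0.0075 and -0.0225. The 1 gene over 100 kb, Abca1, was at 0.0806, where 2301 such genes had 0.0011. The part of gene length in the result was not tested.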

How the data were processed

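The authors deposited raw UMI counts per gene and barcode from 10x 3′ libraries. Cell Ranger is version 6.1.1 per the file headers and 3.0.1 per the submitters' processing notes, which also name STAR and GRCm39. The annotation and the treatment of introns and strand are not given in the sources used here. The 31 genes and all lists were chosen with earlier results of these data known. Counts were summed per library and class and scaled to CPM. Intervals are exact Poisson for levels and exact conditional binomial for ratios (scipy 1.17.1). They were checked on counts simulated with Poisson error only, so that check does not cover spread between nuclei or brains. A gene needed 100 UMIs over both libraries for counts of genes.

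A nucleus took the class with most distinct markers detected, at least 3 for neural lists and 2 for others, without ties; radial glia also needed fewer than 3 general neuron markers. The first rule used, 2 markers for every list and no neuron condition, gave a radial glia class whose kept-out markers did not pass. It was replaced after the genes' results under it had been seen, by comparing 7 rules on the kept-out markers. Some of its values are given above and in the closing section, and its class ratios are part of the ranges over the settings. Scrublet (scanpy 1.11.5) called 0 doublets per library, so it did not work; no doublets were removed, and an alternative dropped the top 8% of scores. The genes past the fold in a comparison, and the most counted genes of each role, are given in full.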

Additional observations from a re-analysis of the deposited data

How the results depend on the processing

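No paired analysis was possible because each genotype has 1 library, and no library could be left out. The alternatives with at most 3% ribosomal protein UMIs, without vascular, fibroblast, microglia and choroid plexus nuclei, and with the first marker rule were chosen after seeing the data. The summed enzyme ratio over all nuclei ran from 0.155 to 0.195 over the settings in which it was computed. The median of the mevalonate part was 0.257 with a minimum of 200 genes and 0.108 with nuclei thinned to 1000 UMIs, which left out 846 and 1111 shallower nuclei. That of the sterol part was 0.136 and 0.055 in those settings and 0.245 at the ribosomal limit. The regulation median reversed to -0.004 with 200 genes. The transport median was 0.055 thinned, 0.066 at the ribosomal limit and 0.050 without the vascular and related nuclei. Genes at least 25% higher numbered 5 with at most 1% mitochondrial UMIs, 5 thinned, and 0 at 1.5-fold. Within the general neuron class the first marker rule gave 0.249 for the enzymes and 0.474 for Apoe. Within radial glia-like nuclei it gave 0.155 and 0.836. Genes 2-fold higher in radial glia-like nuclei numbered 5 with a stricter gate, 4 with 1000 genes, 0 with the first rule and 9 at 1.5-fold. For dividing nuclei the count was 2 thinned and 2 at 1.5-fold, for fibroblast-like 4 and for microglia or macrophage-like 6 at 1.5-fold, and for oligodendrocyte precursor-like 2 with the stricter gate, 0 thinned and 3 at 1.5-fold. The cause of these shifts was not tested. Thinning also cut the UMIs, and gene counts per class rest on few UMIs in the small classes. Counting genes with at least 20 UMIs left the members' counts as they were, since all 31 had over 100.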
